A study of Saccharomyces cerevisiae with 255 samples.

Results

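The histone genes of budding yeast comprised 10 of the 6629 genes in the deposited tables, and they were chosen by name, as the genes that encode histones. They were HTA1 (YDR225W) and HTA2 (YBL003C), which encode histone H2A, HTB1 (YDR224C) and HTB2 (YBL002W) for H2B, HHT1 (YBR010W) and HHT2 (YNL031C) for H3, HHF1 (YBR009C) and HHF2 (YNL030W) for H4, HTZ1 (YOL012C) for the variant H2A.Z, and HHO1 (YPL127C) for the linker histone H1. The study asked which mRNAs are bound in vivo by yeast mRNA-binding proteins (RBPs), and which regions of these proteins set the choice. Each RBP was fused at its own locus in strain BY4741 to Pup-2, a poly(U) polymerase of Caenorhabditis elegans, so that mRNAs met by the RBP receive Us after the poly(A) tail. The libraries came from 90 strains: 109 from 34 strains with an intact RBP, 127 from 50 strains in which a region of the RBP was deleted, 11 from 3 strains with an inactive Pup2 on Puf3, Puf4 or Puf5 (dPup2), and 8 from 3 C-Swat strains of the same RBPs, which carried no Pup2. All cells were in exponential growth in synthetic medium with glucose.

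Yeast carries each core histone as a pair of genes, and each pair of H2A and H2B or of H3 and H4 genes is transcribed divergently from a shared promoter. Core histone transcription is confined largely to S phase, when new DNA must be packaged, whereas H2A.Z and the linker histone are not part of the canonical octamer. Unlike metazoan histone mRNAs, which end in a stem-loop, yeast histone mRNAs are polyadenylated, so poly(A) selection retains them. Puf3, Puf4 and Puf5 are Pumilio-family proteins that recognise a UGUA-containing element in the 3′ part of mRNAs, and Puf proteins are known for repressing the mRNAs they bind.

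The strain labels name the groups used here. Intact Puf5 had 6 libraries, intact Puf4 4, intact Pub1, a poly(U)-binding protein, 4, and intact Sro9, a La-domain protein, 2. Puf5 regions were deleted in Puf5_T1 (3 libraries), Puf5_T1Δintron (3), Puf5_T2 (4), Puf5_T3 (4), Puf5_T4 (2), Puf5_T5 (3), Puf5_T6 (3) and Puf5_ΔRBD (2), which lacks the RNA-binding domain (RBD). The titles of the Puf5_T3 and Puf5_T4 libraries use other names for the deletion than their strain labels do. Those of Puf5_ΔRBD name a truncation beside the RBD deletion, so this strain may lack more than the RBD. The strain labels were followed, and no order of deletion size was assumed. Many titles carry a code that may mark a clone, but no source used here says that libraries of a strain came from separate cultures, so p-values measure the spread between these libraries, which may be technical.

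The windows after the stop codons are shown because the Puf proteins separated members of a pair. All 10 genes are a single coding exon in the R64 annotation of RefSeq. HTA1 (chromosome IV, 915530 to 915928, plus strand) and HTB1 (IV, 914317 to 914712, minus) lie head to head, 817 bases apart. HTA2 (II, 235394 to 235792, minus) and HTB2 (II, 236492 to 236887, plus) are 699 bases apart, HHT1 (II, 256331 to 256741, plus) and HHF1 (II, 255373 to 255684, minus) 646, and HHT2 (XIV, 575640 to 576050, minus) and HHF2 (XIV, 576727 to 577038, plus) 676. HTZ1 (XV, 303579 to 303983, minus) and HHO1 (XVI, 308828 to 309604, minus) stand alone. On the transcript strand of the 300 bases after the stop codon, 3 spacings of the element were searched, TGTANATA, TGTANANTA and TGTANNANTA, where N is any base. The 9-base form matched 4 of the 10 genes, against 8.67% of 5939 genes on this strand and 6.85% on the other strand. Each is printed 5′ to 3′ from R64, with the match in capitals and T for U, for HTA2 at chrII:235242-235271, HTB1 at chrIV:914220-914249, HHT1 at chrII:256824-256853 and HHT2 at chrXIV:575402-575431.
HTA2: ttaaagacagTGTATAGTAttactattaat
HTB1: taaaaaaaatTGTATAATAgtttaataatt
HHT1: ctttaacagtTGTATAATAgttatttttta
HHT2: caagaaaccaTGTATAATAattatcaataa
The 10-base form matched HTB1, HTB2, HHF1 and HTZ1, against 8.13% of all genes (6.68% on the other strand), shown for the genes of H4 and H2A.Z at chrII:255240-255269 and chrXV:303485-303514.
HHF1: aggagaaataTGTACAATTAtaaacatata
HTZ1: tattaacgtcTGTATCATTAttataagttg
The 8-base form matched HTB2 alone, against 16.4% of all genes (15.6% on the other strand). No match to these letters was in the windows of HTA1, HHF2 or HHO1. A match is a description of the sequence and was not tested as a site.

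Library totals ranged from 93564 to 5768639 reads (median 1045022), with 861659 to 2455946 for Puf5, 1304567 to 2887659 for Puf4, 241734 to 1319709 for Pub1 and 181495 to 2917011 for dPup2, and 10 libraries held under 200000 reads. Genes of a cells were read in every strain (STE2 223 to 719.7 RPM, reads scaled to a common library size), and of the genes deleted in BY4741, MET17 was at 0 in every strain, LEU2 at 0 to 6.69 RPM, URA3 at 0 to 78.5 RPM and HIS3 at 117 to 670.1 RPM. A read was called tagged when 4 to 13 Us followed its poly(A) stretch, and the tagged share is the percentage of a gene's reads that were tagged. The background was low: the 11 dPup2 libraries held 7 tagged reads among 145416 histone reads (0.00481%), against 0.0120% over all genes, and the 8 C-Swat libraries held 12 of 123482 (0.00972%), against 0.0143%.

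In the Puf5 strain HHT1 was the most heavily tagged histone mRNA, followed by HHO1, HTA1, HTZ1 and HHF2, while HTA2, HTB2, HHT2 and HHF1 were tagged in fewer than 1 read in 100. The tagged share of HHT1 in the 6 Puf5 libraries ran from 13.2% to 26.3% with a median of 18.8%. That of HHO1 ran from 4.96% to 12.2% with a median of 8.11%, and that of HTA1 from 2.40% to 5.88% with a median of 3.96%. All 6 libraries of each lay above every dPup2 library. HHF2 ran from 1.21% to 3.66% with a median of 2.24%, and HTZ1 from 1.92% to 10.8% with a median of 3.40%, where 1 library held the high value. HTB1 ran from 0.223% to 1.24% with a median of 0.491%, and HTB2, HHT2 and HHF1 stayed at or below 0.528% in every library. HTA2, whose level was close to that of HHF2, gave 2 tagged reads of 13481 in the 6 libraries together, and none in 4 of them.

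**Figure D1:**
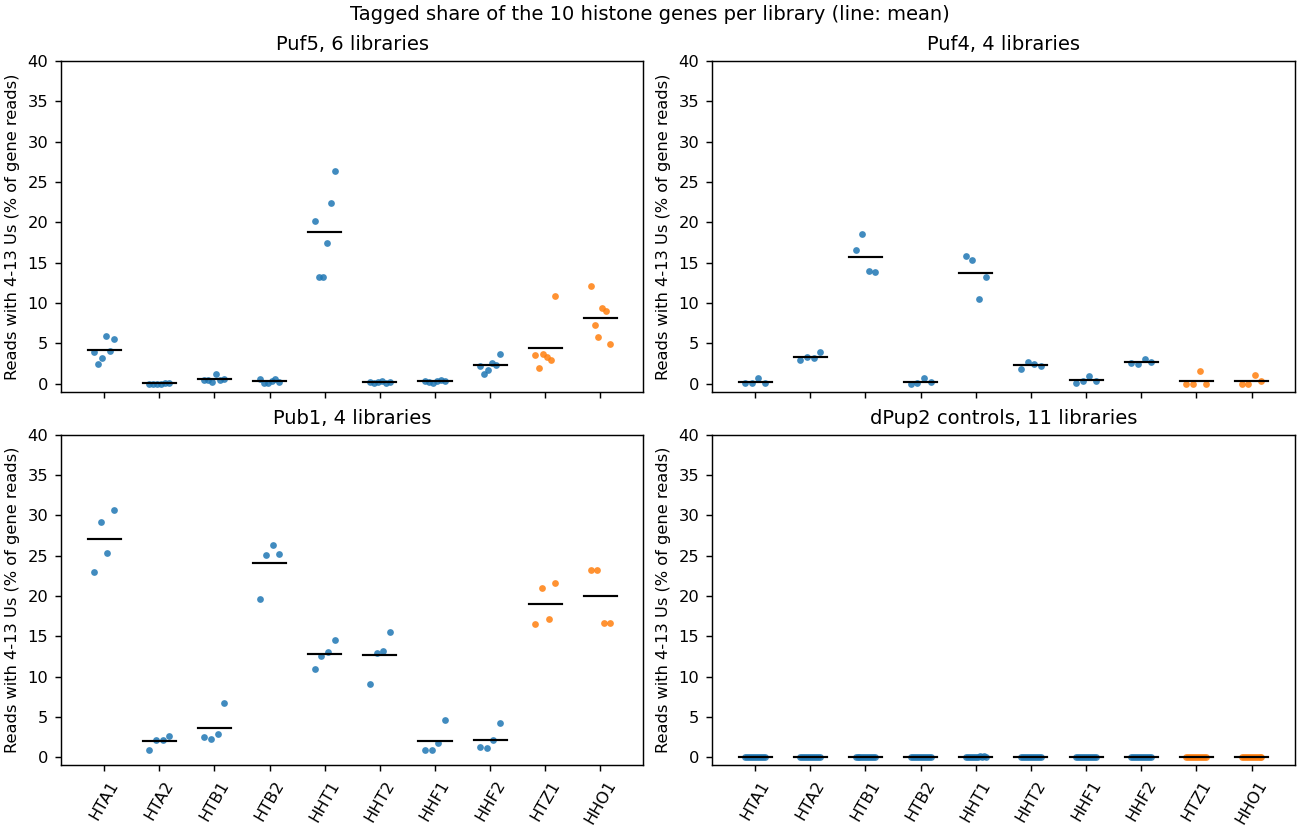
Tagged share (percent of a gene's reads with 4 to 13 Us) of the 8 core histone genes (blue) and of HTZ1 and HHO1 (orange) in the Puf5, Puf4, Pub1 and dPup2 libraries, with 1 point per library and a line at the mean. HHT1 is high in the Puf5, Puf4 and Pub1 strains, HTA1 is highest in Pub1, HTB1 is high in Puf4 alone of these, and dPup2 stays near 0 for each gene.

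The tagged share in Puf5 was set against dPup2 with edgeR's quasi-likelihood test on tagged reads, with each gene's own total as the offset. Of the 10 genes 9 reached the 10 tagged reads needed for the test, and all 9 were higher in Puf5, against 68.3% of the 167 genes tested. Since dPup2 held almost no tagged reads, a gene reached that minimum through the Puf5 libraries, so the count of members called follows in part from the filter. HTA2 was not tested. HHT1 had 2486 tagged reads of 12715 in Puf5 and 3 of 14476 in dPup2, a ratio of 943 with a 95% counting interval of 322 to 4578 (adjusted p = 6.70e-26). HTA1, with 472 tagged reads of 11369, was at least 191-fold higher than the 3 counts that a zero over the 13778 dPup2 reads allows (adjusted p = 5.25e-19). HHF2 was at least 175-fold higher (adjusted p = 2.67e-18), HHO1 at least 33.1-fold (1.56e-11) and HTZ1 at least 28.9-fold (2.89e-10). HTB1 had a ratio of 30.1 (interval 9.80 to 150; adjusted p = 1.79e-10), HHT2 of 40.1 (6.48 to 1655; 3.67e-06), and HHF1 and HTB2 were at least 14.4-fold (2.59e-07) and 11.2-fold (6.11e-06) higher. Intervals and limits cover counting error only. Leaving out 1 dPup2 library moved the fitted log2 difference of HTB1 from 4.53 to 5.15 (replicate 4 of the Puf3 strain) and that of HHT2 from 4.05 to 4.89 (replicate 1 of the Puf5 strain). Against the 2 libraries of Puf5 with inactive Pup2 alone, HTB2, HHT2 and HHF1 lost the call and the other 6 kept it.

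The modification level of a gene, the sum of U count times RPM over 4 to 13 Us divided by its total RPM, weighs longer tags more. In Puf5 HHT1 reached 1.53, which ranked 3 among the 4408 genes of at least 16 RPM, and HHT1 alone gave 15.3% of all tagged reads of the strain. HHO1 (0.587, rank 11), HTA1 (0.284, rank 21) and HTZ1 (0.257, rank 24) also passed 0.15, the level the study used to name a target, and HHF2 lay just below it at 0.147 (rank 46). The remaining 5 were at 0.0337 or below. HHO1 was 1342nd by level in the same strain and HHT1 153rd, so the most tagged members were not the most abundant ones.

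Within Puf5 the members of 3 of the 4 core pairs differed in tagged share. HHT1 exceeded HHT2 by 18.6 percentage points ± 5.16 (SD, n = 6) and HTA1 exceeded HTA2 by 4.14 ± 1.34, each in 6 of 6 libraries, with an exact two-sided sign-flip permutation p = 0.03125, the smallest that 6 libraries allow (adjusted p = 0.0417 over the 4 pairs). HHF2 exceeded HHF1 in 6 of 6 libraries (HHF1 minus HHF2 -1.99 ± 0.783; p = 0.03125, adjusted 0.0417, exact permutation). HTB1 minus HTB2 was 0.303 ± 0.374 and positive in 4 of 6 libraries (p = 0.125, exact permutation), which was within the spread. The tagged copy thus lay on different chromosomes or ends of the divergent pairs: HHT1 sits beside the little-tagged HHF1, and HHF2 beside the little-tagged HHT2. Words of 25 bases were searched from 300 bases before to 100 bases after the stop codon, a stand-in for the counted window. Of these, 18.4% occurred again in the genome for HHT1 and for HHT2, and 35.6% for HHF1 and for HHF2. The share was 3.99% for HTA1 and HTA2 and 4.26% for HTB1 and HTB2. None of the words wholly after the stop codon was repeated. Where the other copies lay was not recorded. How reads from repeated words were assigned is not given in the sources used here, so values within the H3 and H4 pairs are the less certain ones.

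Puf4 tagged a different set of the same genes, with HTB1 and HHT1 far above the rest. The tagged share of HTB1 in the 4 Puf4 libraries was 16.6%, 18.6%, 14% and 13.8%. That of HHT1 was 15.8%, 15.4%, 10.5% and 13.2%, and that of HTA2 was 2.92%, 3.24%, 3.19% and 3.91%. Each of these was well above dPup2 in every library, and HTA2, nearly untagged in Puf5, was the tagged H2A gene here. HHF2 gave 2.61%, 2.45%, 3.04% and 2.65%, and HHT2 gave 1.76%, 2.73%, 2.39% and 2.17%. HTA1 gave 0.0829%, 0.125%, 0.705% and 0.0387%, so 1 library of 4 held 8 of its 12 tagged reads.
Modification levels in Puf4 were 1.29 for HTB1 (rank 26 of 4323), 1.06 for HHT1 (rank 41), 0.222 for HTA2, 0.185 for HHF2 and 0.153 for HHT2, and 0.0482 or less for the rest. The 4 genes with the 9-base form were all among these 5, and HHF2, the remaining one, had no match. In Puf5 this form did not go with tagging in the same way: of the 4 genes HHT1 alone was a target, while HTB1 (0.0337), HHT2 (0.0148) and HTA2 (0.000686) were low, and the targets HTA1 and HHO1 had no match to any of the 3 forms. Of the genes with the 10-base form, HTB1, HTB2 and HHF1 were at 0.0337 or below in Puf5 and HTZ1 was a target. All 8 genes tested against dPup2 were higher in edgeR, against 93.6% of the 391 genes tested, and HTZ1 and HHO1 had too few tagged reads. Without the library that stood apart, replicate 3, whose tagged share over all genes was 0.734% against 0.546% to 0.564% in the others, 6 members were tested and called. HTB1 had a ratio of 834 over dPup2 (counting interval 285 to 4048) and HHT1 of 657 (224 to 3190), while HTA2 was at least 256-fold and HHF2 at least 202-fold higher.

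Set directly against each other, Puf5 and Puf4 differed on 6 of the 10 genes, and in both directions. This comparison was chosen after the values were seen. It used edgeR's quasi-likelihood test, in which 9.8% of 459 genes were higher in Puf5 and 62.5% lower, with a median log2 difference of -2.99 over all genes. HTA1 was 22.6 times as often tagged in Puf5 (counting interval 12.8 to 44.0; log2 difference 4.34 ± 0.54 SE, adjusted p = 1.22e-06). Without replicate 3 of Puf4, which held 8 of the 12 HTA1 tags, this ratio was 55.9 (counting interval 21.7 to 205.9). HHO1 (log2 difference 4.58, adjusted p = 1.06e-05) and HTZ1 (3.38, 0.00232) were also higher in Puf5. The Puf4 side of these rested on 2 tagged reads of HHO1 and 3 of HTZ1, the latter all in replicate 3. Without that library the ratio of HHO1 was 56.8 (9.86 to 2274) and HTZ1 was at least 9.79-fold higher. HTA2 (-7.39, 2.69e-10), HTB1 (-4.79, 1.54e-09) and HHT2 (-3.53, 2.84e-08) were lower in Puf5. HHT1 was not called different (0.45 ± 0.31, adjusted p = 0.184), nor were HHF2 (-0.25, 0.418), HHF1 (-0.72, 0.244) and HTB2 (0.08, 0.93). A p that misses the threshold does not show that the 2 proteins tagged them alike.

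Pub1 tagged all 10 histone mRNAs, and 7 of them passed 0.15, in a strain where 55.5% of the expressed genes did. The modification levels of HTA2 (0.1228), HHF1 (0.1265) and HHF2 (0.1332) lay below the median of 0.1892 over expressed genes. The members together were tagged in 11.47% of reads, against 22.4% over all genes. The tagged share of HTA1 in the 4 Pub1 libraries was 23.0%, 29.2%, 25.3% and 30.7%, and that of HTB2 was 19.6%, 25.1%, 26.4% and 25.2%. HHO1 gave 23.3%, 23.3%, 16.7% and 16.7%. These were the 3 most tagged members, and HTB2 was hardly tagged in Puf5 or Puf4. HTZ1 gave 16.5%, 21.0%, 17.1% and 21.6%, and HHT1 gave 10.9%, 12.6%, 13.04% and 14.5%, and HHT2 9.06%, 12.95%, 13.1% and 15.5%. HTB1, HTA2, HHF1 and HHF2 stayed between 0.866% and 6.77%. All 10 were higher than dPup2 in edgeR, against 99.9% of the 1488 genes tested, so the call is not particular to them. HTA1 minus HTA2 was 25.05 ± 2.93 percentage points and HTB1 minus HTB2 was -20.4 ± 3.18 (SD, n = 4), whereas HHT1 minus HHT2 was 0.0923 ± 1.204 and HHF1 minus HHF2 -0.140 ± 0.377, both within the spread. With 4 libraries the smallest p of an exact two-sided sign-flip test is 0.125, so none was run. The H3 pair was thus split in Puf5 and Puf4 and level in Pub1.

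**Figure D2:**
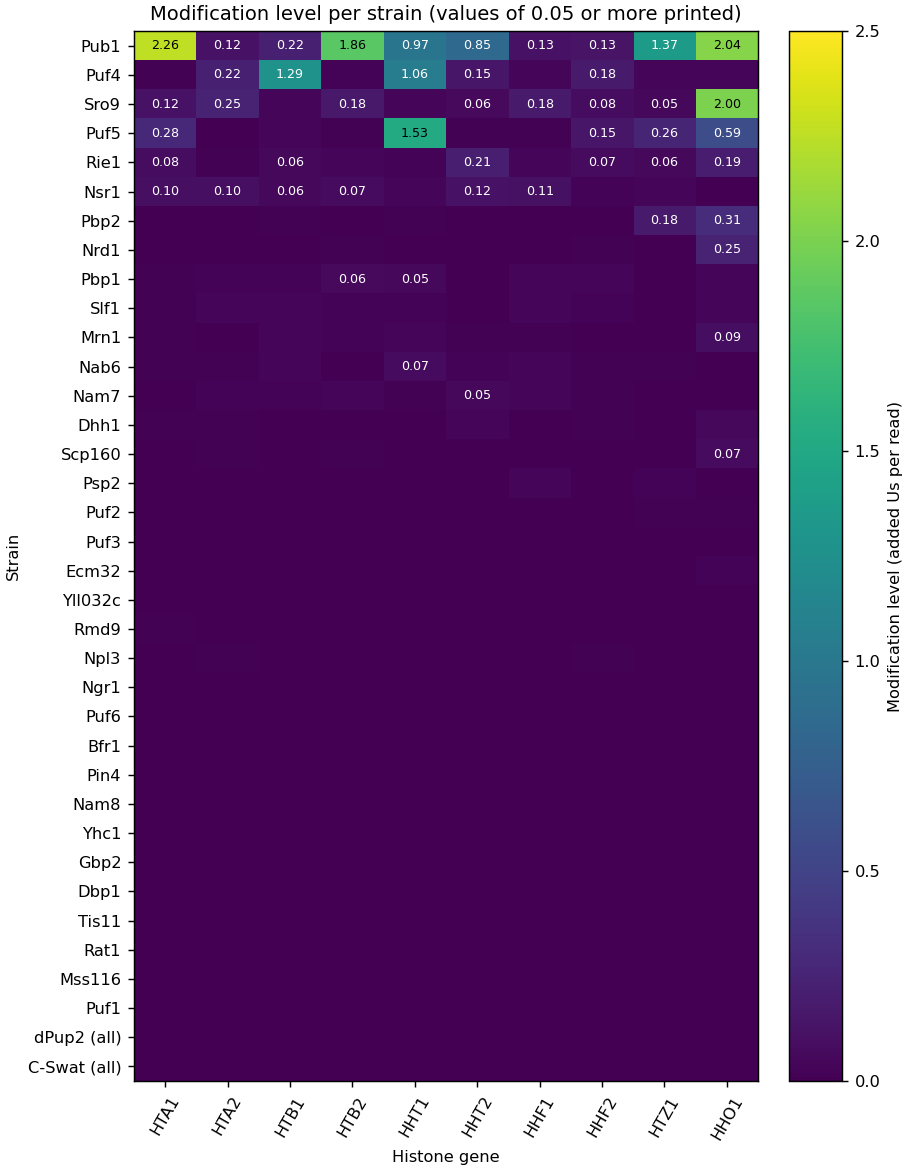
Modification level (added Us per read, linear colour scale, values of 0.05 or more printed) of the 10 histone genes, in columns, in the 34 strains with an intact RBP and the pooled dPup2 and C-Swat libraries, in rows. Values above 0.15 are concentrated in the Pub1, Puf4, Sro9 and Puf5 rows, with HHT1 at 1.53 in Puf5 and HTB1 at 1.29 in Puf4, and the remaining ones lie in Rie1, Pbp2 and Nrd1.

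Outside these 3 strains, member levels above 0.15 were found in Sro9, Rie1, Pbp2 and Nrd1 alone. Over the 34 intact strains 25 of the member levels passed 0.15. In Sro9, HHO1 had a modification level of 2.00 (rank 21 of 3888) on 27 tagged reads of 178. Its tagged shares were 13.8% and 36.4% in the 2 libraries. Scaling to RPM gave the shallow library as much weight as the deep one, so this rank is uncertain. HTA2 (0.252), HHF1 (0.181) and HTB2 (0.175) passed 0.15 as well, in a strain where 20.99% of the expressed genes did. The members together were tagged in 1.68% of reads in Sro9, against 10.25% over all genes. The Sro9 libraries differed widely in depth (2361683 and 93564 reads), and edgeR called 9 of 9 members tested, against 99.6% of all genes tested, but 1 without the deeper library. In Rie1, an RNA-binding protein with RNA-recognition motifs, HHT2 (0.209) passed 0.15, and HHO1 (0.187) did so on 4 tagged reads of 141. In Pbp2 HHO1 (0.314) rested on 5 tagged reads of 137 and HTZ1 (0.180) on 8 of 280, and in Nrd1 HHO1 (0.247) on 1 tagged read of 75, which is too shallow to rank. Of the expressed genes, 11.18% passed 0.15 in Rie1, 1.212% in Pbp2 and 1.94% in Nrd1. Against dPup2, edgeR called members higher in Nsr1 (8 of 8 tested, background 99.4%), Rie1 (8 of 8, 99.8%), Puf3 (5 of 7, 83.2%), Nab6 (5 of 5, 95.5%), Mrn1 (3 of 3, 96.4%), Pbp1 (2 of 2, 80.4%), Nam7 (1 of 1, 80.8%) and Slf1 (1 of 1, 96.1%). In Puf2 the 1 member tested was not called (background 60.7%), and in 21 strains no member had 10 tagged reads. None was called lower. These comparisons share the same 11 dPup2 libraries.

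In the main edgeR fits 4 to 7 histone mRNAs were tagged more in 4 of the 7 strains with Puf5 regions outside its RBD deleted. The counts depended on the fit and on single libraries. In these strains 25.4% to 67.2% of the genes tested rose too, while HHT1, already high, passed the test in none of them. The tagged share of HTA1 was 13.2%, 8.68%, 6.99% and 13.7% in the 4 Puf5_T3 libraries, all above the highest intact Puf5 library (5.88%). HHF2 was 9.36%, 6.04%, 6.12% and 9.79%, also above every intact library (highest 3.66%). HHT1 was 34.9%, 22.0%, 20.5% and 34.7%, which overlapped the intact range of 13.2% to 26.3%. In edgeR 7 of the 9 members tested were higher in Puf5_T3, against 55.5% of the 348 genes tested, whose median log2 difference was 2.01. HHF2 was higher by 1.79 on the log2 scale (SE 0.34, adjusted p = 6.47e-06), HTB1 by 1.62 (0.000883), HTA1 by 1.35 (0.000602), HHT2 by 1.73 (0.0104), HHF1 by 1.41 (0.0211), HTZ1 by 1.4 (0.00455) and HHO1 by 1.10 (0.024). Each of these 7 differences was below that median. A gene with few tags in intact Puf5 could reach the 10 tagged reads through Puf5_T3, so this share and median follow in part from the filter. HHT1 (0.58, adjusted p = 0.133) and HTB2 (1.28, 0.0648) were not called, and HTA2 was not tested. With reads of 14 and 15 Us counted as tagged, an alternative added after the values were seen, HHT1 was called in Puf5_T3 (0.79, adjusted p = 0.0324), and the calls described next for HHF1 in Puf5_T4 (0.0546), HTZ1 in Puf5_T5 (0.103) and HHT2 in Puf5_T6 (0.136) were lost. The libraries fell into 2 high (replicates 1 and 4) and 2 low for HHT1, HTA1 and HHF2 alike. The tagged share over all genes was also highest in replicates 1 and 4 (0.942% and 0.924%, against 0.456% and 0.676%), and their share of reads with 16 Us was lowest (3.29% and 3.51%, against 7.17% and 10.3%). The part of this in the result was not tested.

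**Figure D3:**
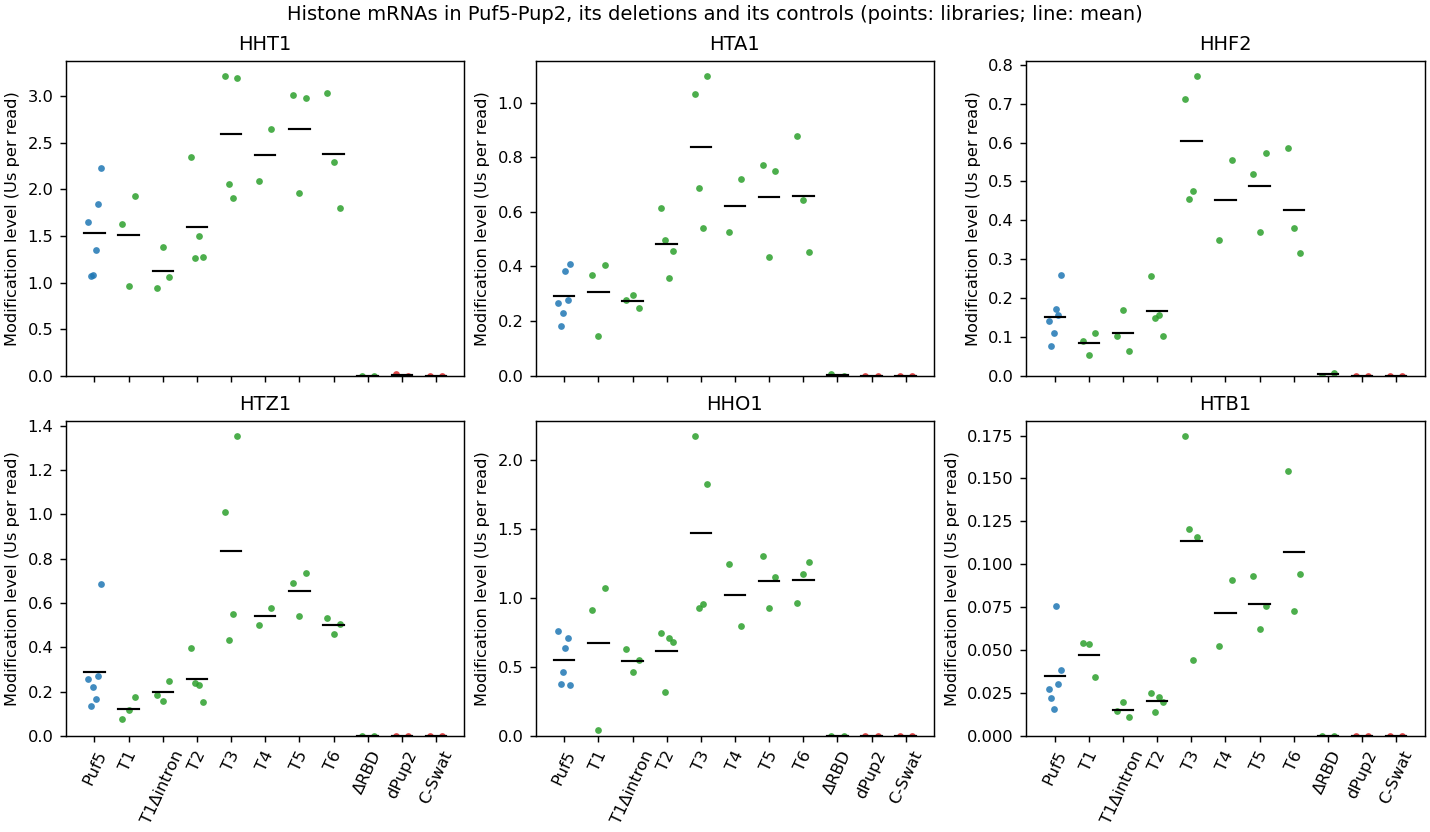
Modification level (Us per read, linear axis, with a scale of its own for each gene) of 6 histone genes in intact Puf5 (blue), its deletion strains (green) and the dPup2 and C-Swat strains of Puf5 (red), with 1 point per library and a line at the mean of the libraries. HTA1 and HHF2 sit higher in each Puf5_T3 library than in any intact one, and all 6 genes fall to 0 or near 0 in Puf5_ΔRBD.

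Members were also higher in 3 other strains, which share the 6 intact libraries as reference and were filtered in the same way. In Puf5_T4 (67.2% of the genes tested higher, median log2 difference 2.18) 4 members of 9 tested were higher in edgeR: HTA1 (1.03, adjusted p = 0.0271), HHT2 (2.37, 0.00189), HHF1 (1.62, 0.0337) and HHF2 (1.49, 0.00179). In Puf5_T5 (40.8%, median 1.45) 4 of 9 were higher, which were HTA1 (1.09, 0.0111), HHT2 (2.05, 0.000879), HHF2 (1.49, 0.000529) and HTZ1 (1.08, 0.0391). In Puf5_T6 (25.4%, median 1.07) 4 of 9 were higher, which were HTA1 (1.05, 0.0214), HTB1 (1.39, 0.0126), HHT2 (1.58, 0.0226) and HHF2 (1.27, 0.00618). HTA1, HHT2 and HHF2 were thus called in all 4 strains, HHT2 in Puf5_T6 only with tags of 4 to 13 Us, although the tagged share of HHT2 stayed at or below 1.51% in each library. These counts rested on few libraries: without replicate 1 of Puf5_T6 no member was called there, without replicate 1 of Puf5_T5 1 was, without replicate 3 of Puf5_T5 2 were, without replicate 2 of Puf5_T6 2 were, and without replicate 1 or 2 of Puf5_T4 2 and 1 were. In limma on the log2 tagged share the counts were 6, 1, 2 and 0 in Puf5_T3 to Puf5_T6.

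In Puf5_T1, Puf5_T1Δintron and Puf5_T2 no member of 9 tested was called, and no gene was called over all 172, 160 and 213 tested (0%), where at an unadjusted p under 0.05 edgeR gave 7 higher and 3 lower genes in Puf5_T1, 1 and 5 in Puf5_T1Δintron, and 17 and 0 in Puf5_T2. HHT1 gave 19.6%, 12.9% and 24.0% in Puf5_T1, 10.96%, 15.8% and 12.6% in Puf5_T1Δintron, and 27.0%, 14.9%, 17.3% and 15.3% in Puf5_T2, which overlapped the intact range. In Puf5_ΔRBD HHT1 had no tagged read of 3301, at least 215-fold below intact Puf5. HTA1 and HHF2 had 1 tagged read each, of 3392 and 4384, so that intact Puf5 was 141 times (counting interval 25.1 to 5574) and 101 times (18.1 to 4019) as high. In edgeR 8 of the 9 members tested were lower, against 69.5% of the 128 genes tested. HHT2 was not called (log2 difference -2.43, adjusted p = 0.0574). Puf5_ΔRBD held 3 tagged reads among 30699 histone reads. Each of the 9 members thus reached the minimum of tagged reads through intact Puf5, so the count of members called lower follows in part from the filter.

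The tagging of HTA2 and HHT2 rose in Puf4_T3 and Puf4_ΔIDR, and most members lost their tags in Puf4_T4, Puf4_T4&ΔIDR and Puf4_ΔRBD. HTA2 was tagged in 12.6%, 12.9% and 8.28% of reads in Puf4_T3 and in 13.97% and 11.4% in Puf4_ΔIDR, against at most 3.91% in intact Puf4. HHT2 was tagged in 7.60%, 7.89% and 5.67%, and in 6.80% and 5.40%, against at most 2.73%. In edgeR 4 of 8 members were higher in Puf4_T3, against 9.28% of the 431 genes tested: HTA2 (1.77, adjusted p = 0.000115), HHT2 (1.65, 0.000227), HHF2 (1.09, 0.0131) and HHT1 (0.82, 0.0222). HTB1, at 26.5%, 24.5% and 19.8%, was not called (0.59, 0.0649). In Puf4_ΔIDR HTA2 (1.92, 9.39e-05) and HHT2 (1.41, 0.00464) were higher, against a background of 6.68% of 404 genes. In limma none of these 6 calls was made, and without replicate 1 or 2 of Puf4_T3 2 members were called there. Without replicate 2 of intact Puf4 2 were called as well. In Puf4_ΔIDR 1 member was called without either of its libraries, and 4 without replicate 3 of intact Puf4. No member of 8 was called in Puf4_T1 (0% of 408 genes) or Puf4_T2 (0.752% of 399 genes higher and 0% lower). Members were lower in Puf4_T4 (6 of 8, background 69.2%), Puf4_T4&ΔIDR (6 of 8, 61.5%) and Puf4_ΔRBD (7 of 8, 81.5%). HTB1, HTA2, HHT1, HHT2, HHF1 and HHF2 were lower in each of these strains. Intact Puf4 by itself took each of the 8 members to the minimum of tagged reads, so these counts follow in part from the filter. HTB1 in intact Puf4 was 233 times as often tagged as in Puf4_ΔRBD (counting interval 90.6 to 854) and at least 156-fold above Puf4_T4, and HHT1 was 80.6 times (44.9 to 162) and 159 times (54.4 to 773) as often tagged.

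Every deletion of Pub1 lowered part of the histone tagging. All 10 members were lower than intact Pub1 in Pub1_ΔIDR_1 (background 86.8%), Pub1_ΔIDR_2 (98.2%) and the strain labelled Pub1_T2, whose libraries with 2 different titles were kept apart (88.1% and 99%). In Pub1_Δ4 9 were lower (80.6%), in Pub1_Δ2 7 (57.3%), in Pub1_ΔIDR_3 5 (56.8%) and in Pub1_ΔT1 5 (20.4%). HTA1, HTB2, HHT1, HHT2 and HTZ1 were lower in each of these, and the other 5 members in part of them. HHO1 was not lower in Pub1_Δ4 (log2 difference 0.21, adjusted p = 0.522) or Pub1_ΔIDR_3 (0.05, 0.919), and in Pub1_ΔT1, where it was tagged in 35.6% and 35.2% of reads, it was called higher (0.70, 0.0494; 1.77% of genes were higher). That call was lost in DESeq2, in limma, with tags of 4 to 15 Us, and without any 1 of the 4 intact or 2 Pub1_ΔT1 libraries. In the Rie1 deletions HHT2 was lower in all 5 strains. Its log2 difference was -3.58 in Rie1_Δ2 (adjusted p = 0.0103, 14.4% of genes lower), -2.35 in Rie1_Δ4 (0.0388, 34.8%), -3.87 in Rie1_ΔIDR_1 (0.0139, 13.1%), -8.23 in Rie1_ΔIDR_2 (0.0137, 29.5%) and -4.33 in Rie1_ΔIDR_3 (0.000583, 71.3%). HTB2 was lower in Rie1_ΔIDR_2 and Rie1_ΔIDR_3, and HTA1, HHF1 and HHF2 in Rie1_ΔIDR_3. The members lower in the Pub1 and Rie1 deletions each reached the 10 tagged reads in the intact strain alone. Their counts thus follow in part from the filter. No alternative fits were run for the calls in the Rie1 deletions, nor for those in the Puf3 and Mrn1 deletions below.
Calls in the Puf3 deletions were limited to HTB2 and HHF2, both little tagged in intact Puf3, in part of the strains. HTB2 was higher in Puf3_T6 (log2 difference 3.15, edgeR adjusted p = 0.0072, 26.2% of genes higher), in Puf3_Δnon-RBD (3.56, 0.0005, 35%) and in those Puf3_T7 libraries whose titles name del513 (3.71, 7.31e-05, 45.4%). HHF2 was higher in Puf3_T6 (2.75, 0.0366), in the same Puf3_T7 libraries (2.61, 0.00991) and in Puf3_ΔIDR (3.57, 0.0328, 4.63%). No member was called by edgeR in Puf3_T1 (0% of genes), Puf3_T2 (0.188% higher, 0% lower), Puf3_T3 (0%), Puf3_T4 (7.44% higher, 0% lower), Puf3_T5 (11.6% higher, 2.51% lower), the Puf3_T7 libraries whose titles name del465 (0.368% higher, 0% lower) or Puf3_ΔRBD (0% higher, 50.8% lower). At an unadjusted p under 0.05 there were 2 members in Puf3_T3, 1 in Puf3_T4, 2 in Puf3_T5 and 0 in the others. Among the deletions of Mrn1, Nab6 and Scp160, HHT1 in Mrn1_ΔRBD was the only member called (log2 difference -5.65, adjusted p = 0.0321, 59.2% of genes lower).

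Tags on HHT1 in Puf5, on HTB1 and HHT1 in Puf4 and on HHO1 and HTA1 in Pub1 were longer than on the average mRNA. Those of most other tagged members were near or below it. A tag of 6 Us was the most frequent length on each member with enough tagged reads in Puf5. The mean tag on HHT1 in Puf5 was 8.25 Us, with 36.1% of its tags at 10 to 13 Us, against 6.92 Us and 19.9% over all genes. HTA1 had a mean of 7.09 Us, and HHF2 (6.74), HHO1 (6.73) and HTZ1 (6.54) had shorter tags than all genes together. The mean of HHT2, 7.955 Us, rested on 22 tags. In Puf4 HTB1 had the longest mean tag of the members (8.35 Us, 38.6% at 10 to 13) and HHT1 followed (7.77 Us), against 7.38 over all genes. In Pub1 HHO1 stood apart, with a mean of 10.03 Us, a most frequent length of 12 and 66.7% of its 69 tags at 10 to 13 Us, against 7.76 Us and 27.4% over all genes. HTA1 followed there with a mean of 8.58 Us and 38.65% of its 1286 tags at 10 to 13 Us. Mean tag length is a description over reads, with no test.

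**Figure D4:**
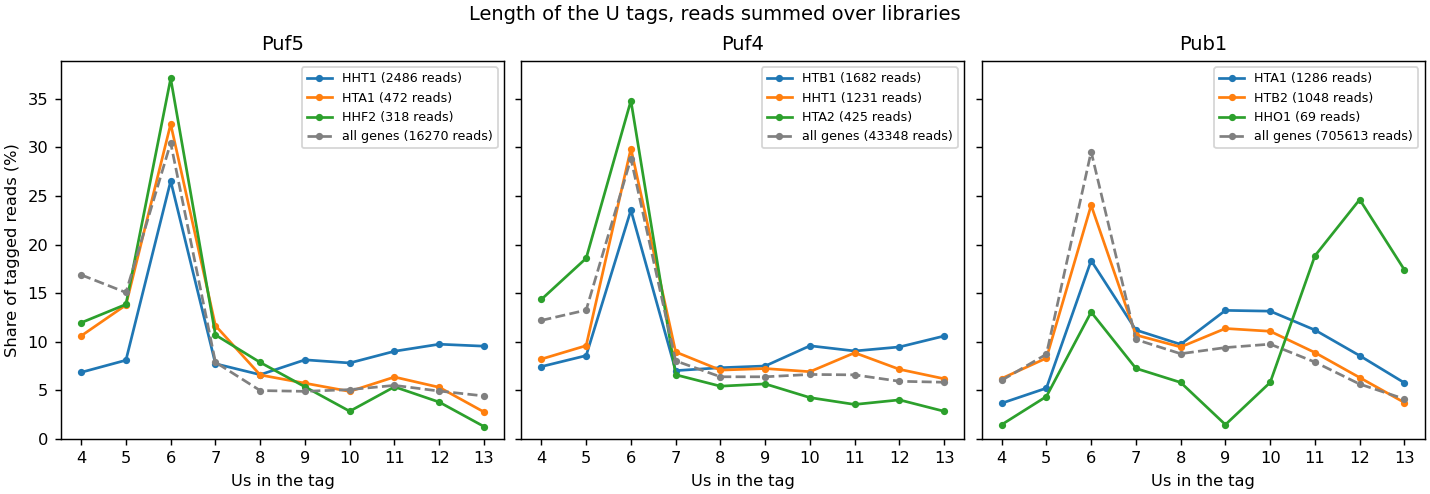
Distribution of tag lengths (percent of tagged reads at each length from 4 to 13 Us, summed over libraries) for 3 histone genes in each of Puf5, Puf4 and Pub1 and for all genes (dashed). The curve of HHT1 in Puf5 peaks at 6 Us and keeps 36.1% of its tags at 10 to 13 Us, against 19.9% over all genes, and the curve of HHO1 in Pub1 peaks at 12 Us.

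The total reads of the histone genes gave their mRNA levels. Every gene was counted in a window of the same length at its 3′ end, so levels are per window, in RPM. In the 11 dPup2 libraries HHF2 (1497 ± 322 RPM, SD), HTA2 (1492 ± 414), HHT2 (1369 ± 159), HHF1 (1177 ± 325), HTB1 (1128 ± 271), HHT1 (959 ± 160), HTB2 (948 ± 227) and HTA1 (919 ± 152) came in this order, and the ranges of neighbours overlapped. HTZ1 (137 ± 24.9) and HHO1 (79.1 ± 24.3) were lower, and the step from HTA1 to HTZ1 was the only one without overlap. The second H2A gene was usually the more abundant one: HTA1 exceeded HTA2 in 3 of the 90 strains. HHT1 exceeded HHT2 in 13 strains, HHF1 exceeded HHF2 in 5 and HTB1 exceeded HTB2 in 67. In bulk RNA, fewer cells in S phase and less histone mRNA per cell cannot be told apart.

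**Figure D5:**
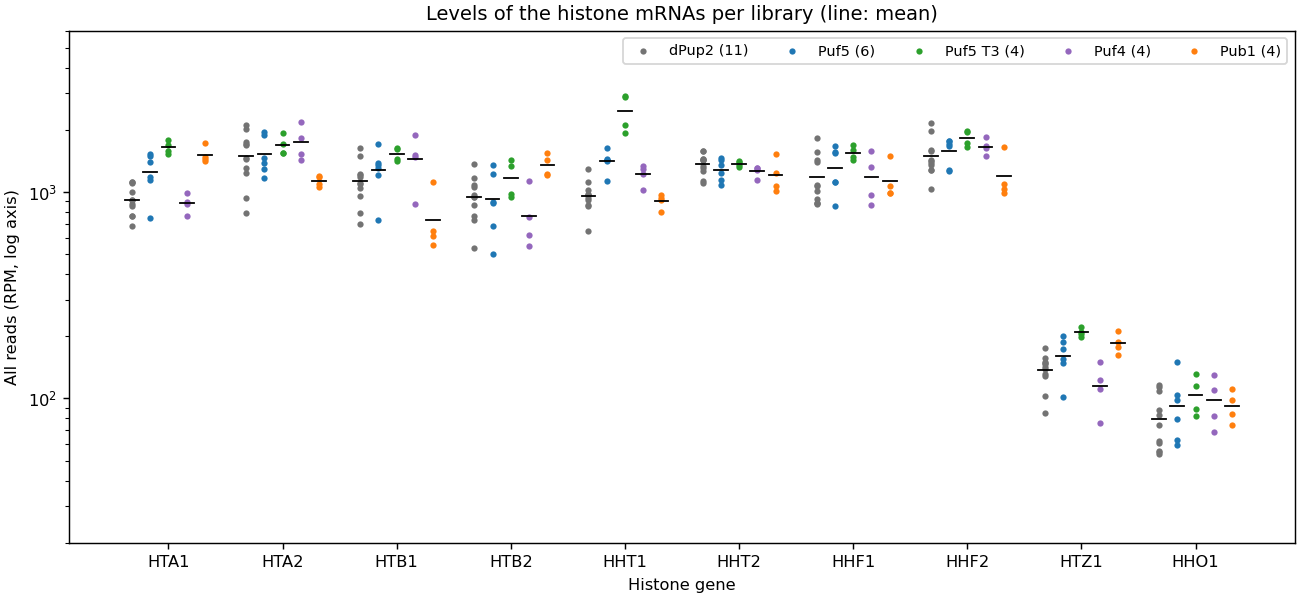
Level (RPM, log axis) of the 10 histone genes in the dPup2, Puf5, Puf5_T3, Puf4 and Pub1 libraries, with 1 point per library and a line at the mean. The 8 core genes lie near 1000 RPM, and HTZ1 and HHO1 lie well below, with dPup2 means of 137 and 79.1.

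Few levels differed from dPup2. Over the 34 intact strains 2 member levels were called by edgeR. HTA1 was at 1718, 1476, 1418 and 1444 RPM in the 4 Pub1 libraries, all above the highest dPup2 library (1119), and was higher by 0.69 on the log2 scale (SE 0.15, adjusted p = 0.00852, against 3.19% of 5178 genes higher). HHO1 was at 49.9, 53.3, 30.8 and 31.5 RPM in the 4 Nsr1 libraries, all below the lowest dPup2 library (54.1), and was lower by 0.97 (log2 difference -0.97, SE 0.24, adjusted p = 0.0274, against 2.11% of 5130 genes lower), a call lost without any 1 of the 4 Nsr1 libraries. HTA1 was also the most tagged member in Pub1 by reads of 4 to 13 Us, whereas a further 22.1% of HHO1 reads and 2.45% of HTA1 reads there had 14 or 15 Us. HHT1 ran from 1125 to 1623 RPM in the 6 Puf5 libraries with dPup2 at 649 to 1289 RPM, and its difference was not called (log2 0.52, adjusted p = 0.999), where no gene was called and 58 and 68 genes had an unadjusted p under 0.05 for higher and lower. In Puf5_T3 HHT1 was at 2868, 1930, 2109 and 2912 RPM, all above the intact libraries, with a log2 difference of 0.76 that was not called (adjusted p = 0.680, 0 of 5206 genes called, with 69 higher and 113 lower at an unadjusted p under 0.05). Replicates 1 and 4, which had the higher HHT1 tagging, also had the higher HHT1 level. In Puf5_ΔRBD the difference was -0.35 (adjusted p = 0.824).

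Genes around the histones were mostly untested. Of 26 histone regulators and chaperones, 1 had enough tagged reads in Puf5, CHZ1 (YER030W), a chaperone of H2A.Z and H2B, and it was higher than dPup2 (log2 difference 6.05, SE 0.67, edgeR adjusted p = 1.29e-10, against a median of 3.06 over all genes). In Puf5_T3 CHZ1 was higher still than in intact Puf5 (2.08, edgeR adjusted p = 9.28e-06), the only call among the 3 tested. That difference was close to the median of 2.01 over all genes tested there, of which 55.5% were higher, so it is not particular to CHZ1. In Puf4 SPT6, a histone chaperone of elongating polymerase, was the 1 tested and was higher (4.69), at the median of all genes (4.69). In Pub1 4 were tested and higher, with a median of 5.49 against 7.08 over all genes. These counts stand beside all-gene shares of 68.3% in Puf5, 93.6% in Puf4 and 99.9% in Pub1, near which they say little about the lists. Of 18 other genes of the G1/S transition none was tested in Puf5, in Puf4 RFA1 (6.06) and POL30 (7.81), which encode a replication protein and the sliding clamp, were tested and higher, and in Pub1 3 of 3 tested were. In Puf5_T3 PRI1, a subunit of DNA primase, was higher than in intact Puf5 (3.27, edgeR adjusted p = 0.012), 1 of 2 tested, against 55.5% of all genes tested. In total reads, CLN1, a G1 cyclin, was lower in Pub1 (log2 difference -0.90, edgeR adjusted p = 0.0251), the only call of both lists in Puf5, Puf4, Pub1 and Puf5_T3. It was 1 of 18 G1/S genes tested in Pub1, beside 24 regulators with no call, so it says little about the lists.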

How the data were processed

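RNA tagging was measured in 90 strains of Saccharomyces cerevisiae. The authors selected poly(A) RNA, ligated an adapter with a molecular identifier to the 3′ ends, aligned read 1 to R64 with Bowtie2, counted Us after the poly(A) stretch on read 2, and counted sense reads from 300 nt before to 100 nt after each transcription termination site with bedtools. The deposited files hold raw counts for 6629 genes in 17 columns of 0 to 16 Us. Tool versions, and whether identifiers were collapsed, are not given in the sources used here. RefSeq named 5956 of the gene IDs. The study names no test between strains. Strain labels set the groups; Puf3_T7 and Pub1_T2 were split by title.

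Counts of 4 to 13 Us were summed as tagged reads, and RPM was scaled to each library's total. Tagged shares were tested with edgeR 4.0.16 (quasi-likelihood, R 4.3.3) on tagged reads with the log of each gene's total reads as offset, where a gene entered when the compared libraries together held 10 or more tagged reads and it averaged 16 RPM or more. Total reads were tested with TMM scaling and filterByExpr. P-values were adjusted over all genes tested (Benjamini-Hochberg, 0.05). Pairs of genes were compared with an exact sign-flip permutation test (scipy 1.17.1). Both edgeR fits were tried on simulated counts, in which the tagged shares of both groups lay far above the dPup2 background. Controls with almost no tagged reads and the sign-flip test were thus not covered. Alternatives were DESeq2 1.42.0, limma 3.58.1, other tag lengths, filters and controls, a replicate block and leaving out each library. They were not run for the deletion strains of Puf3, Mrn1, Nab6, Rie1 and Scp160. Genes described were the 10 histone genes and lists of histone regulators and G1/S genes; members and lists were chosen with earlier results of these data known. Sequences came from RefSeq R64. Totals set the precision: 1 read is worth more RPM in a shallow library, so shares of HTZ1 and HHO1 are the least exact. In Puf5_T2 the deviations of libraries with the same title code as an intact Puf5 library correlated in all 4 pairs (0.109 to 0.357). For codes C1_1 and C1_3 another intact library matched better. Correlations were also positive in Puf5_T1 (0.155) and Puf5_T5 (0.046 to 0.371). Pairing by code was thus not established in any strain, and the code marks no stated batch.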

Additional observations from a re-analysis of the deposited data

Results flagged for a closer look

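A test for a library far from the others of its strain marked 8 of 100 groups of values, where chance marks about 1 in 20. In Puf5, HTZ1 was tagged in 10.84% of reads in 1 library against at most 3.623% in the others, and HTA2 in 0.09911% against at most 0.02963%, a single read. In Puf4 replicate 3 lay apart for HTA1 (0.7048% against at most 0.1254%) and HTZ1 (1.531% against 0). In Pub1 replicate 4 lay apart for HTB1 (6.767% against at most 2.878%), and replicate 1 for the levels of HHF1 (1494 against at most 1071 RPM) and HHF2 (1643 against at most 1095 RPM). HTB1 was at 1902 RPM in 1 Puf5_T2 library against at most 1353.

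Puf5 and Puf4 differed in a direct test for HTA1 (log2 difference 4.34), HHO1 (4.58), HTZ1 (3.38), HTA2 (-7.39), HTB1 (-4.79) and HHT2 (-3.53), with edgeR adjusted p from 2.69e-10 to 0.00232.

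Reads with 14 or 15 Us, which the tagged share leaves out, were frequent on the most tagged members. They made up 3.783% of HHT1 reads in Puf5 and 10.83% in Puf5_T3, against 0.04145% in dPup2. They made up 2.617% of HTB1 reads in Puf4 against 0.04203% in dPup2, and 22.12% of HHO1 reads in Pub1 against 0.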

How the results depend on the processing

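Leaving out each library in turn gave 9 to 9 members higher in Puf5, 52 to 60 calls over the other 33 RBPs, 6 to 8 in Puf4, 10 to 10 in Pub1, 1 to 9 in Sro9, 15 to 20 over Puf5_T3 to Puf5_T6, 0 to 0 in Puf5_T1, Puf5_T1Δintron and Puf5_T2, 7 to 9 lower in Puf5_ΔRBD, 4 to 8 higher and 18 to 22 lower in Puf4 deletions, 0 to 2 higher and 62 to 70 lower in Pub1 deletions, 3 to 3 both ways for Puf5 against Puf4, 1 to 3 total-read calls over 34 strains (2 with all of them) and 0 to 0 in Puf5 deletions. HHO1 in Nsr1 ran from -1.11 to -0.87 and the pairs from 3.796 to 4.493 (HTA), 0.1792 to 0.3807 (HTB), 17.1 to 19.7 (HHT) and -2.183 to -1.716 (HHF); with 5 libraries no pair can pass the exact test.

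Counting 4 to 16 Us as tagged moved most results. It gave 1 member higher in Puf5 in place of 9, 10 calls in the other RBPs in place of 60, 2 in Puf4, 0 in Sro9, 0 over Puf5_T3 to Puf5_T6 in place of 19, 1 lower in Puf5_ΔRBD and 0 higher in Puf5 against Puf4, and turned HTB1 (-0.30), HHT2 (-0.18) and HHF1 (-0.34) in Puf5 against dPup2. It put 10 members in Puf5 and 340 over 34 strains above 0.15. The column of 16 Us held 7.232% of all reads in dPup2 and 5.432% in Puf5; what it holds was not tested. A modification level of 0.3 left 2 members in Puf5 in place of 4 and 12 in place of 25.

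With no expression filter and a minimum of 1 tagged read in place of 10, the other RBPs gave 102 calls and Puf5_T3 to Puf5_T6 9; limma gave 9 there. DESeq2 gave 2 members in Sro9 and 5 total-read calls, and library totals in place of TMM gave 1 (HHO1 in Nsr1 -0.88, not called). In Puf4 deletions, 4 to 15 Us gave 10 higher in place of 6 and limma 0; in Pub1 deletions 4 to 15 Us, DESeq2 and limma gave 0 higher in place of 1. The cause of these moves was not tested.

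With the replicate block, Puf5_T3 to Puf5_T6 gave 24 calls in place of 19, 7 of them in Puf5_T6. Total reads gave 2 in Puf5_T3 (HHT1 higher, HTA2 lower) in place of 0. The block changed no call of a member in Puf5_T2, and the codes were not shown to pair libraries in any strain. Depth limits the values of HTZ1 and HHO1 most, and shares under about 0.1% rest on single reads.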

Other observations

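Among the 3109 genes compared, those whose modification level followed that of HHT1 most closely over the 34 intact strains were HHF2 (Pearson r = 0.879), FKH1 (0.861), YHM2 (0.841), HTB1 (0.841) and MSN5 (0.833), a description over strains that share methods and depth, with no test. A high r did not mean a like level. In Puf5, Puf4 and Pub1 FKH1 was at 0.0143, 0.0287 and 0.0373 and MSN5 at 0.0206, 0.0448 and 0.113, against 1.53, 1.06 and 0.967 for HHT1. YHM2 in Pub1 (3.11) and HTB1 in Puf4 (1.29) lay above HHT1. The summed level of the 8 core genes over 90 strains was followed most closely by ATP20 (Spearman rho = 0.531), QCR7 (0.528), ATP7 (0.522), HHO1 (0.517) and ATP17 (0.497), of which 4 encode subunits of mitochondrial respiratory complexes and ATP synthase.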
